A study of Mus musculus with 70 samples.

Results

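Neurons that have just been active switch on a wave of immediate early genes. Part of that wave encodes transcription factors, and part encodes effectors that act at the synapse, on signaling cascades or on other transcripts. The 10 effector and late activity-induced genes described here are Arc, Npas4, Homer1, Ier2, Btg2, Nptx2, Plk2, Rgs2, Gadd45b and Klf4. They were chosen by symbol, as activity-induced genes outside the AP-1, Egr and Nr4a families, and are 10 of the 24346 genes listed. All 10 were found, and all passed the minimum mean of 1 FPKM over all libraries that 12994 genes passed. FPKM scale a gene's fragments by transcript length and by the size of the library, so levels can be compared between genes.

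The samples are dorsal hippocampus RNA from 70 male C57BL/6J mice aged 12 weeks, 1 library per mouse and 10 in each of 7 groups, with 5 mice per group from each of 2 harvest cohorts. Sedentary mice (0-0-0) and the exercise groups (0-0-2, 14-14-0, 14-7-2, 14-7-0 and 14-0-0) had 3 min of subthreshold object location memory (OLM) training 1 h before collection, whereas home cage mice had neither exercise nor training. Training came after several days of handling and of habituation to the chamber. The study does not state whether these home cage mice had either. A group name gives the days of initial voluntary wheel running, of sedentary delay and of reactivating running. All mice were housed singly, and wheels were taken away the night before training. No exercise group went untrained, so lasting effects of running and effects of training after it cannot be told apart. The tissue is bulk, so fewer cells of a type and less RNA per cell cannot be told apart.

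Arc encodes a cytoskeleton-associated protein that drives AMPA receptor endocytosis, and Homer1 a postsynaptic scaffold whose short form is the activity-induced one. The deposited values are per gene, so the short and long forms of Homer1 were not separated. Nptx2 encodes a secreted pentraxin that clusters AMPA receptors, Plk2 a kinase of homeostatic synaptic weakening, and Rgs2 an inhibitor of G protein signaling. Npas4 is a neuron-specific transcription factor that shapes inhibitory synapses, and Klf4 a zinc finger factor. Btg2 is an antiproliferative cofactor of mRNA deadenylation, Gadd45b takes part in DNA demethylation, and Ier2 is a small nuclear protein of the early response. The calcium-responsive factor CREB binds the cAMP response element (CRE) near many such genes.

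Promoter windows show how the genes differ in these elements. RefSeq promoter windows on GRCm38.p6 matched 7 of the 10 genes. The search covered the 250 bases upstream of the start site, on both strands, for the full CRE, TGACGTCA, and its half-site, TGACG. The full element contains the half-site on each strand. Btg2 and Plk2 held the full CRE, against 1.55% of 32841 windows, while Npas4, Homer1, Btg2, Plk2, Rgs2 and Klf4 held a half-site, against 17.8%. The serum response element, searched by its consensus, was in 0 of the 7 and in 1.47% of all windows. A match is a description of letters, not a bound site. The 4 stretches shown, 5′ to 3′ on the gene's strand with the matches in capitals, are the windows with the full element, the one with the most half-sites (Homer1) and the matches of Npas4, which was lower after exercise. The Btg2 window is chr1:134079156-134079405 (minus strand), with the CRE from base -166. The Plk2 window is chr13:110394794-110395043 (plus strand), with the CRE from base -62. The Homer1 window is chr13:93303507-93303756 (plus strand), with half-sites from bases -56, -40 and -14. A second Homer1 window, chr13:93307784-93308033, held no match. For Npas4 only 30 bases are shown, chr19:4990129-4990158 (minus strand), with half-sites from bases -179 and -169. All 250 bases of its RefSeq window lie in exon sequence of the GENCODE vM21 annotation. By that annotation the Npas4 half-sites are inside the transcribed gene and not upstream of its start.
Btg2: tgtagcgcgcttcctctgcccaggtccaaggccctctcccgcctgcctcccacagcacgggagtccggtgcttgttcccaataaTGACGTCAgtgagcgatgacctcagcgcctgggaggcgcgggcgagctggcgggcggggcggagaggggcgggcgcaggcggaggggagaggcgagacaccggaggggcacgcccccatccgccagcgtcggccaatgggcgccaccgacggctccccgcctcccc
Plk2: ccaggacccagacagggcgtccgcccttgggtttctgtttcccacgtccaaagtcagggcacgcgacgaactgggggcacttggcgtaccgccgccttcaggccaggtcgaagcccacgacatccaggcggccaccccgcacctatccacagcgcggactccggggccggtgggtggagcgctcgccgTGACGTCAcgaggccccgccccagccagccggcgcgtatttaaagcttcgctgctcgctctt
Homer1: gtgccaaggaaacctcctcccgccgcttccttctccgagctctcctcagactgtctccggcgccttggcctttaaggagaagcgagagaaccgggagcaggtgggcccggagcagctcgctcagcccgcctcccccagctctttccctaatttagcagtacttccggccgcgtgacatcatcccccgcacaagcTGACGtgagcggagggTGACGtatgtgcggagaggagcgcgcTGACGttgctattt
Npas4: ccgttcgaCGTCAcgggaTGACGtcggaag

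The 10 genes are protein-coding. On GRCm38 (GENCODE vM21), Arc lies at chr15:74669083-74672570 and Npas4 at chr19:4984355-4990316. Btg2 lies at chr1:134075170-134079120 and Nptx2 at chr5:144545902-144557478. The others are Homer1 (chr13:93299635-93405129), Ier2 (chr8:84661331-84662852), Plk2 (chr13:110395046-110400844), Rgs2 (chr1:143999338-144004161), Gadd45b (chr10:80930073-80932204) and Klf4 (chr4:55527143-55532466).

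Markers of hippocampal cells were present, with group medians of 96.0 to 109 FPKM for the summed dentate gyrus granule cell markers and 170 to 217 for the CA1 pyramidal cell markers, but some libraries stood apart. In sedentary replicate 6 the summed level of 5 dentate gyrus granule cell markers was 4.4 FPKM, against a sedentary median of 98.3, and that of 6 thalamus markers was 315 against 33.5. Thalamus markers were also high in 14-14-0 replicate 3 (202 FPKM), 0-0-2 replicate 4 (171) and 14-7-2 replicate 3 (117), against medians of 31.9 to 34.96 in the 7 groups. In 14-7-0 replicate 4, 10279 genes were listed at 0, against 6243 to 7199 elsewhere, and 1 read was worth 22.2 times as much as in the median library, while this ratio was 0.561 to 1.83 in the other 69. The summed level of 7 choroid plexus markers had a median of 2284 FPKM in 14-0-0 and 2107 in 14-14-0, against 84.7 in sedentary and 82.8 to 125 in the other groups. Differences that sedentary replicate 6 moved most are given with and without it.

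The genes spanned a wide range of levels and of spread. Plk2 had the highest mean over all libraries, 96.7 FPKM, followed by Arc (36.1), Homer1 (32.8), Nptx2 (16.4) and Rgs2 (13.3). Btg2 (6.59), Gadd45b (5.33), Ier2 (2.48), Npas4 (1.88) and Klf4 (1.55) were lower. The SD between mice of one group, on the log2 scale, was 0.69 for Ier2, 0.58 for Arc, 0.48 for Gadd45b and 0.39 for Npas4, whereas the median gene had 0.22. Arc ranged from 13.2 to 109 FPKM over the 70 libraries. The lowest SD was that of Homer1, 0.24, but without sedentary replicate 6 and 14-7-0 replicate 4 Plk2 had 0.204 and Homer1 0.207. When the 7 groups were ordered by mean log2 level, no pair of neighbors differed by more than the within-group SD for any gene. The widest such step, 0.864 SD, lay between home cage and 0-0-2 for Btg2.

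**Figure D1:**
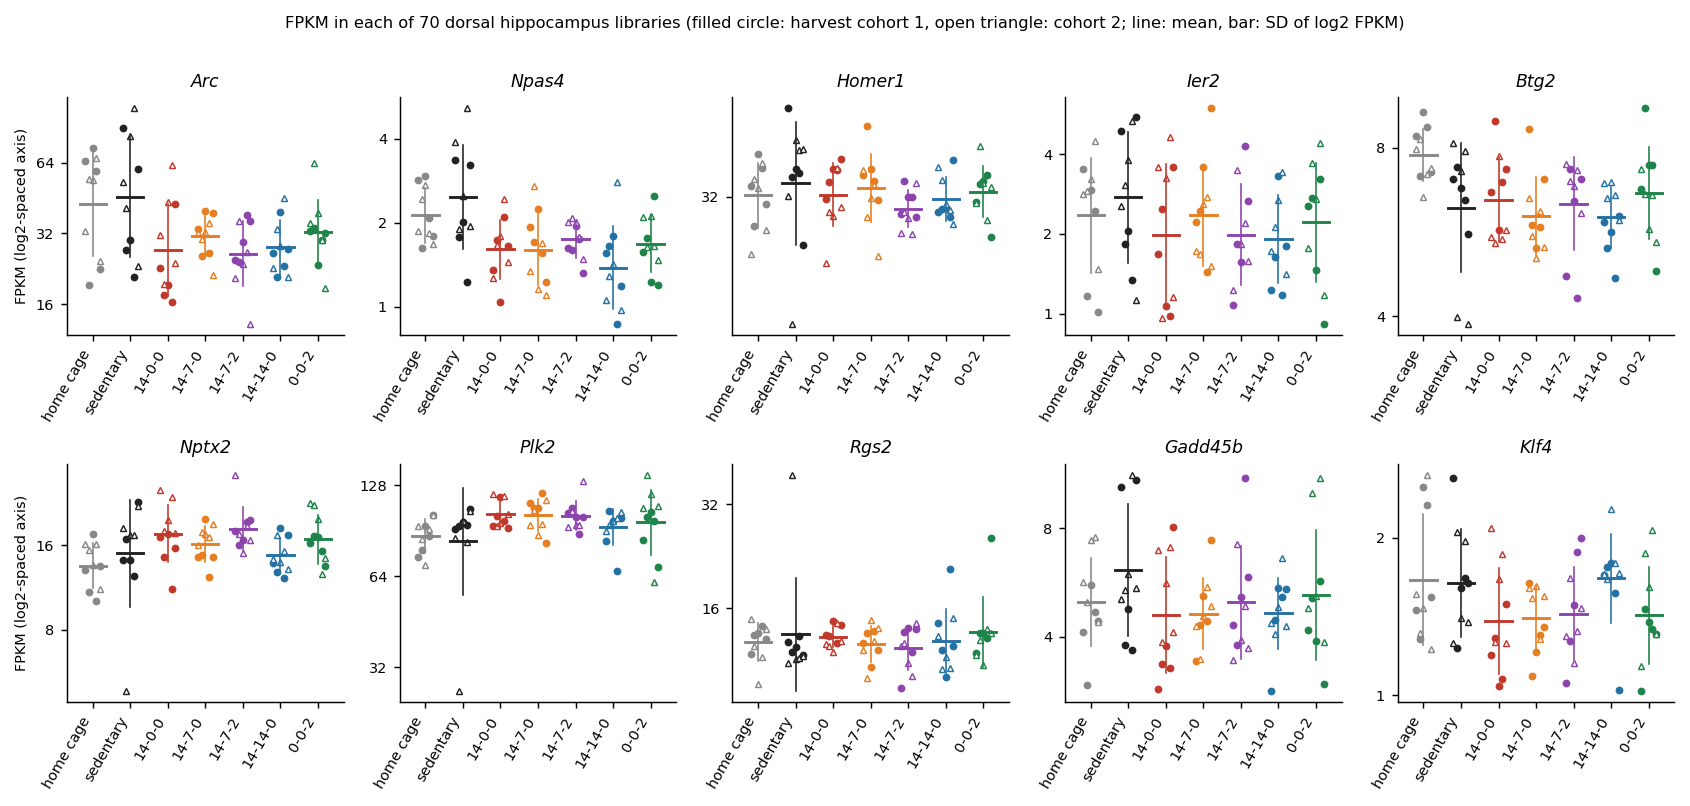
FPKM of the 10 genes (vertical axes, log2-spaced) in the 70 libraries by group (horizontal axes). Filled circles are harvest cohort 1, open triangles cohort 2, lines the mean and bars the SD of log2 FPKM with 10 libraries per group. Arc and Npas4 sit lower in the exercise groups than in sedentary, and sedentary replicate 6 stands alone for Plk2, Nptx2 and Rgs2.

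Which effectors differ when training follows exercise rather than sedentary housing? Arc and Npas4 were lower, and the other 8 genes were not called in any of the 5 exercise groups. A call means an unadjusted p under 0.05, as the study used, in limma's moderated test on log2(FPKM + 0.1). Every comparison uses the same 10 sedentary libraries, so the 5 results are not independent of each other.

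Arc had a median of 46.9 FPKM in sedentary mice (range 20.9 to 109; mean 53.6 ± 30.96, SD, n = 10). Its median was 23.5 in 14-0-0 (range 16.4 to 62.3), 32.3 in 14-7-0 (range 21.3 to 40.0) and 25.7 in 14-7-2 (range 13.2 to 38.4). It was 26.9 in 14-14-0 (range 20.9 to 45.1) and 32.4 in 0-0-2 (range 18.8 to 63.8). The groups overlapped, yet 48 of the 50 exercise libraries lay below the sedentary median. The sedentary libraries were themselves widely spread, with 5 at 52.7 FPKM or more and 4 at 30.2 or less. Arc was lower by a log2 difference of -0.76 ± 0.32 (SE) in 14-0-0 (p = 0.0281), -0.56 ± 0.27 in 14-7-0 (p = 0.0486), -0.81 ± 0.29 in 14-7-2 (p = 0.011) and -0.72 ± 0.28 in 14-14-0 (p = 0.018). In 0-0-2 the difference was -0.51 ± 0.29 and did not pass (p = 0.0943).

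Npas4 is expressed at a low level, and it varied less between mice than Arc. Its median was 2.25 FPKM in sedentary mice (range 1.22 to 5.15; mean 2.69 ± 1.196, SD, n = 10). In the exercise groups the medians were 1.66 in 14-0-0 (range 1.04 to 2.44), 1.63 in 14-7-0 (range 1.10 to 2.71) and 1.76 in 14-7-2 (range 1.32 to 2.07). They were 1.36 in 14-14-0 (range 0.865 to 2.80) and 1.64 in 0-0-2 (range 1.197 to 2.50). The groups again overlapped, and 46 of 50 exercise libraries fell below the sedentary median. Npas4 was lower in all 5 groups. The log2 difference was -0.60 ± 0.21 (SE) in 14-0-0 (p = 0.009), -0.60 ± 0.22 in 14-7-0 (p = 0.0122) and -0.49 ± 0.19 in 14-7-2 (p = 0.0189). It reached -0.80 ± 0.23 in 14-14-0 (p = 0.0022), rank 9 of 12994 genes by p, and -0.54 ± 0.21 in 0-0-2 (p = 0.0168).

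These calls can be read against all genes. In 14-0-0, 2 of the 10 genes were called, where 9.15% of all genes were called and 3.04% were lower. The same 2 were called in 14-7-0 (3.26% called, 1.66% lower), in 14-7-2 (4.39% and 2.32%) and in 14-14-0 (4.95% and 1.75%). In 0-0-2, 1 was called (2.37% and 1.23%). After Benjamini-Hochberg adjustment over the 12994 genes, 0.0% of genes were called in each of these 5 comparisons by limma, so neither Arc nor Npas4 passed (smallest adjusted p = 0.358, Npas4 in 14-0-0). The median log2 difference of the 10 genes was -0.15 in 14-0-0, -0.15 in 14-7-0, -0.18 in 14-7-2, -0.09 in 14-14-0 and -0.13 in 0-0-2, while that of all genes lay between -0.01 and 0.01.

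**Figure D2:**
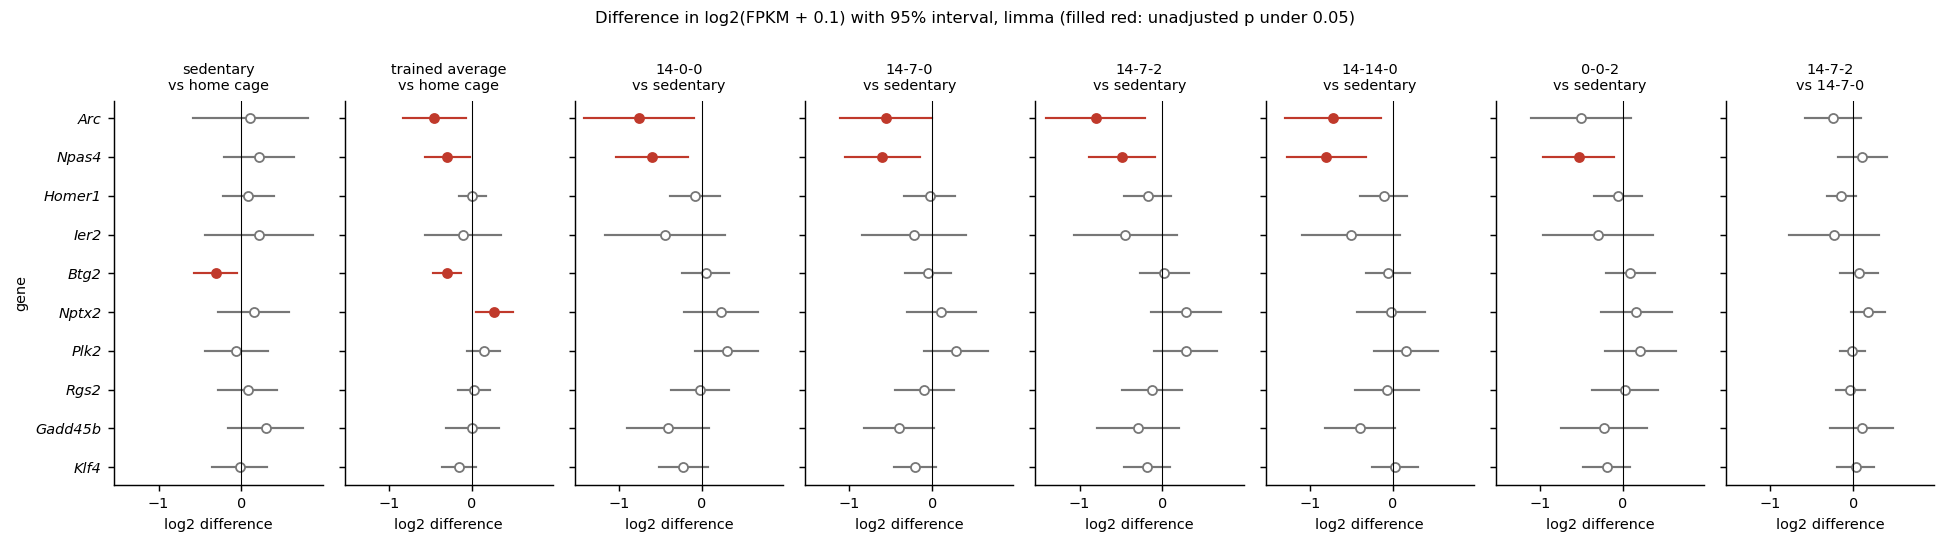
Difference in log2(FPKM + 0.1) (horizontal axes) for each of the 10 genes (vertical axis) in 8 comparisons, with 95% intervals from limma. Filled red points have an unadjusted p under 0.05. Npas4 is red against sedentary in all 5 exercise groups and Arc in 4 of them.

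The Arc and Npas4 differences differed in how much they rested on single libraries and library quality. Each library of the compared groups was left out in turn, which gave 20 fits per comparison. Npas4 stayed called in all 20 fits of each of the 5 comparisons, with p from 0.0004673 to 0.03977. Arc stayed called in all 20 fits for 14-7-2 and for 14-14-0, in 15 for 14-0-0 and in 6 for 14-7-0. For 14-0-0, Arc missed the threshold without sedentary replicate 0, 7 or 8 or without 14-0-0 replicate 1 or 3 (p up to 0.05911). For 14-7-0, the Arc call was lost without any of sedentary replicates 0, 4, 5, 6, 7 and 8 or of 14-7-0 replicates 0, 1, 3, 5, 6, 7, 8 and 9 (p up to 0.1025). Conversely, in 0-0-2 Arc was called without sedentary replicate 3 or 9 or 0-0-2 replicate 6 (p = 0.03398 to 0.04365).

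Base composition moved with Arc. The GC slope of a library, the change in its genes' log2 deviations per 10 percentage points of transcript GC, averaged 0.061 in sedentary and -0.038 to 0.013 in the exercise groups. Arc transcripts are 58.95% GC, against a median of 49.73% over all genes. With the slope as a covariate, Arc differed by -0.52 in 14-0-0 (p = 0.0691) and -0.39 in 14-7-0 (p = 0.0936), neither of them called, and by -0.61 in 14-7-2 (p = 0.013) and -0.56 in 14-14-0 (p = 0.0184). Npas4 (55.58% GC) remained lower in all 5 groups, by -0.40 to -0.69, with p from 0.0026 to 0.0367. When the choroid plexus score was the covariate, Arc kept its call in 14-7-2 alone (-0.57, p = 0.0436). The Arc difference shrank to -0.38 in 14-0-0 (p = 0.335) and -0.43 in 14-14-0 (p = 0.189), the groups with high choroid plexus medians, and was -0.49 in 14-7-0 (p = 0.0743). Npas4 kept its call in 14-7-0, 14-14-0 and 0-0-2 (p = 0.0146 to 0.0331), and its difference was -0.53 in 14-0-0 (p = 0.06) and -0.36 in 14-7-2 (p = 0.0678). The part of base composition and of choroid plexus tissue in these differences was not tested further.

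Both genes were lower in each harvest cohort. In cohort 1 the Arc differences ran from -0.28 to -0.81 and the Npas4 differences from -0.33 to -0.63, none of them called with 5 libraries per group. In cohort 2 Arc differed by -0.64 to -1.23, called in 14-7-0, 14-7-2 and 14-14-0, and Npas4 by -0.59 to -0.97, called in all groups but 14-7-2 (p = 0.0517). The difference between cohorts was tested for the 10 genes in 8 comparisons, and 0 of the 80 tests gave p under 0.05 in limma (smallest unadjusted p = 0.066, smallest adjusted p = 0.953).

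How did trained sedentary mice differ from home cage mice? Any handling and habituation that home cage mice lacked cannot be told apart here from the 3 min session. With all libraries in, Btg2 was the only one of these genes called between sedentary and home cage mice, and it was lower. Btg2 had a median of 7.66 FPKM in home cage (range 6.53 to 9.27) and 6.90 in sedentary (3.87 to 8.15), and these ranges overlapped. The log2 difference was -0.31 ± 0.12 (SE), with p = 0.0227 in limma. Without sedentary replicate 6 the Btg2 difference was -0.24 (p = 0.0443). In cohort 1 alone it was -0.29 (p = 0.0194) and in cohort 2 alone -0.33 (p = 0.181). Markers of several cell types were lower in the same comparison. Of the choroid plexus markers 4 of 7 were called lower, of the endothelial markers 2 of 6 and of the meningeal and fibroblast markers 3 of 5. All 5 dentate gyrus granule cell markers were below zero (median -0.63) with 0 called, and CA1 pyramidal cell markers were split (2 above, 2 below). Sedentary replicates 9 and 6, with Btg2 at 3.87 and 3.98 FPKM, had summed dentate markers of 40.9 and 4.4 FPKM, against a sedentary median of 98.3. The summed endothelial level ranged from 85.6 to 113 FPKM in home cage and from 75.0 to 111 in sedentary. With the choroid plexus score as covariate the Btg2 difference was -0.32 (p = 0.0348), and the part of the other markers was not tested. So 1 of 10 genes was called, where 2.3% of all genes were, and 0.0% after adjustment. Arc had a difference of 0.11 ± 0.33, with a 95% interval from -0.59 to 0.80, and its home cage range was 19.3 to 73.8 FPKM around a median of 54.2. Npas4 had 0.21 ± 0.20 (interval -0.21 to 0.64) around a home cage median of 1.97. Gadd45b had 0.29 ± 0.22 (-0.16 to 0.74), Ier2 0.22 ± 0.31 (-0.44 to 0.87) and Homer1 0.08 ± 0.15 (-0.22 to 0.39). These intervals leave room for a rise or a fall of each. Nptx2 had 0.15 ± 0.20 (p = 0.481), but without sedentary replicate 6, whose 4.85 FPKM was the lowest of all 70 libraries, it was higher by 0.33 (p = 0.0145).

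Against home cage mice, the average of the 6 trained groups showed 4 of 10 genes called, where 3.59% of all genes were. Btg2 was lower, by -0.30 ± 0.09 (SE; p = 0.000926; adjusted p = 0.344), and 54 of 60 trained libraries lay below the home cage median. Endothelial markers moved the same way, with 3 of 6 called lower and all 6 below zero (median -0.11), and their part in the Btg2 difference was not tested. Arc was lower by -0.45 ± 0.19 (p = 0.0228) and Npas4 by -0.29 ± 0.13 (p = 0.0322). Nptx2 was higher, by 0.27 ± 0.11 (p = 0.0186), with 51 of 60 trained libraries above the home cage median of 13.6 FPKM. The Nptx2 mean rose from 13.8 ± 2.5 (SD, n = 10) in home cage to between 14.9 in 14-14-0 and 18.7 in 14-7-2. After adjustment 0.0616% of all genes were called, and none of the 10 was among them. For the 5 exercise groups without sedentary, Plk2 joined these 4 (0.19, p = 0.0145), and Arc differed by -0.56 (p = 0.00216). The share of all genes called in that setting was not computed. Plk2 was also called for all 6 trained groups without sedentary replicate 6 (0.18, p = 0.0144), against 0.15 ± 0.10 with it. Training and exercise history both separate these exercise groups from home cage and cannot be told apart there.

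Reactivating exercise, compared as 14-7-2 against 14-7-0, called 0 of the 10 genes in limma at an unadjusted p under 0.05, where 5.39% of all genes were called and 0.0% after adjustment. The nearest were Nptx2, 0.18 ± 0.10 (SE; p = 0.0901), and Homer1, -0.15 ± 0.08 (p = 0.0955). Arc differed by -0.25 ± 0.16 (p = 0.143), and with the GC slope as a covariate by -0.24 (p = 0.0179). Harvest cohort 2 against cohort 1, with group as a covariate, likewise called 0 of the 10 where 11.9% of all genes were called and 0.585% after adjustment. Without sedentary replicate 6, Nptx2 was higher in cohort 2 by 0.19 (p = 0.002) and Rgs2 lower by -0.11 (p = 0.0418).

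Of the synaptic genes, Homer1, Plk2 and Nptx2 were not called in any exercise group with all libraries in. Homer1 medians lay between 29.6 FPKM in 14-7-2 and 36.2 in sedentary, and its differences from sedentary between -0.18 and -0.03. Without sedentary replicate 6 (17.2 FPKM, against 25.3 to 49.2 in the other sedentary libraries) Homer1 was lower in 14-7-2 by -0.29 (p = 0.00557) and in 14-14-0 by -0.22 (p = 0.0314). Plk2 had a mean of 103 ± 11 FPKM (SD, n = 10) in 14-0-0 and 88.3 ± 22.9 in sedentary. The log2 difference, 0.30 ± 0.18, was not called (p = 0.117). Sedentary replicate 6 stood at 26.7 FPKM and the other sedentary libraries at 82.9 to 107. Without it the Plk2 difference was 0.11 in 14-0-0 (p = 0.0849), and in the other 4 groups it went from between 0.16 and 0.29 to between -0.02 and 0.11. Nptx2 differences from sedentary ran from -0.02 in 14-14-0 to 0.29 in 14-7-2, and none was called. Without sedentary replicate 6 they ran from -0.20 in 14-14-0 (p = 0.0783) to 0.11 in 14-7-2, and those of 14-7-0 (0.11 to -0.07) and 0-0-2 (0.16 to -0.02) turned negative. The direction of Plk2 and Nptx2 against sedentary thus rests in part on 1 library.

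Rgs2, the G protein regulator, was nearly level except in the libraries with thalamus markers. The sedentary range was 11.1 to 38.9 FPKM around a median of 11.8, and the 38.9 belonged to replicate 6. The value was 25.6 in 0-0-2 replicate 4 and 20.8 in 14-14-0 replicate 3, but 11.9 in 14-7-2 replicate 3. All other libraries lay between 9.41 and 14.96. Against sedentary, Rgs2 differed by -0.13 to 0.03 and was not called. Without sedentary replicate 6 the 14-0-0 difference changed from -0.02 to 0.15 (p = 0.00651).

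Gadd45b, Ier2 and Klf4 were the variable remainder. Gadd45b had a median of 5.44 FPKM in sedentary (3.69 to 11.2) and of 4.00 to 4.96 in the exercise groups. Its differences from sedentary were -0.23 to -0.41, with p = 0.0644 in 14-7-0 and p = 0.0663 in 14-14-0 the smallest. With 1 library left out it was called in 3 of 20 fits for 14-7-0 and in 3 of 20 for 14-14-0. Ier2 differed by -0.22 to -0.50 with ranges that overlapped throughout (0.912 to 5.98 FPKM over the 70 libraries). For 14-14-0 its p was 0.0944, and it was called without sedentary replicate 3 (p = 0.04189) or 9 (p = 0.02864). Klf4 medians lay between 1.27 FPKM in 14-0-0 and 1.71 in 14-14-0, and its differences from sedentary between -0.23 and 0.03, with none called.

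The transcription factors of the same response give the setting. Of 14 AP-1, Egr and Nr4a genes, 12 were tested. Against sedentary 4 were lower in 14-0-0, 2 in 14-7-0, 4 in 14-7-2, 3 in 14-14-0 and 2 in 0-0-2, and 0 were higher. Of all genes tested, 3.04%, 1.66%, 2.32%, 1.75% and 1.23% were lower in these groups, in the same order. Those of smallest p were Egr1, by -0.63 in 14-0-0 (p = 0.000531) and by -0.67 in 14-7-2 (p = 0.000139), and Fos, by -1.04 in 14-7-2 (p = 0.00105). Of 32 other activity-induced genes, 30 were tested, and 5, 1, 4, 1 and 1 were lower in these groups, in the same order. Higher were 2 of them in 14-0-0, where 6.11% of all genes were, and 1 in 0-0-2, where 1.14% were. After adjustment 0 genes of either list were called in these comparisons. Trib1, a pseudokinase scaffold, was lower in all 5, by -0.26 to -0.36. The 2 lists and the 10 genes were chosen with earlier results of these data known, so their shared direction is a description.

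Across mice of one group, Arc, Npas4, Ier2 and Gadd45b varied together, and Klf4 varied with Arc, Ier2 and Gadd45b. Pearson r was computed over the 70 libraries on log2 values with group means removed, with 100000 permutations within groups, two-sided, and adjustment over the 45 pairs. Of these pairs, 14 passed (11 positive, 3 negative). No pair with Btg2 passed, nor did Arc with Homer1 (r = 0.246, adjusted p = 0.209 by permutation). How often pairs of other genes would pass was not computed, so the count is not read as particular to these genes. The closest were Ier2 with Gadd45b (r = 0.79, Spearman rho = 0.774) and Arc with Ier2 (r = 0.786, rho = 0.79), both at p = 1e-05, the smallest the permutations can give (adjusted p = 9e-05 for r). Arc with Npas4 had r = 0.574 and rho = 0.537 (p = 1e-05 for both; adjusted p = 9e-05 for r), and r was 0.508 without the 2 libraries farthest from the Arc median. Within harvest cohorts Arc and Npas4 had r = 0.558 and r = 0.6, Ier2 and Gadd45b 0.777 and 0.827, and Arc and Ier2 0.777 and 0.835.

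Several of the same genes moved with the base composition of the library, and all 10 genes were related to the CA1 pyramidal cell markers. Arc had r = 0.666 with the GC slope (rho = 0.709), Ier2 0.661 (rho = 0.706) and Gadd45b 0.6 (rho = 0.638), each with p = 1e-05 by permutation and adjusted p = 8.33e-05 over 50 relations of the 10 genes with 5 library measures. Npas4 had r = 0.273 (adjusted p = 0.0545 by permutation). Klf4 had r = 0.436 and Homer1 r = -0.338 with the slope (adjusted p = 0.00167 and 0.023 by permutation). With the CA1 marker score Arc had r = 0.578, Plk2 0.571, Nptx2 0.553, Rgs2 -0.537 and Ier2 0.533. Gadd45b had 0.431, Btg2 0.389, Npas4 0.367, Homer1 0.347 and Klf4 0.33. All 10 had an adjusted p under the 0.05 threshold, so this relation was not particular to the early-response genes. Klf4 had r = 0.397 with the endothelial marker score, and Arc had r = -0.379 with the choroid plexus score. The part of these measures in the shared variation was not tested beyond the GC slope. With the slope removed, r fell to 0.617 for Arc with Ier2, 0.656 for Ier2 with Gadd45b and 0.547 for Arc with Npas4. It rose for Arc with Homer1 (0.246 to 0.672), Homer1 with Ier2 (0.112 to 0.476), Homer1 with Gadd45b (0.108 to 0.413) and Nptx2 with Plk2 (0.64 to 0.793), and 22 of 45 pairs then passed, 13 of them among the original 14.

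A second set of relations ran through Plk2, Nptx2 and Rgs2. Nptx2 and Plk2 had r = 0.64 (rho = 0.308; adjusted p = 0.00121 for r by permutation), which was 0.332 without sedentary replicate 6 and 14-7-0 replicate 4. Plk2 and Rgs2 had r = -0.606, but rho = -0.124 (p = 0.379 by permutation), and r was -0.228 without those 2 libraries. Homer1 and Plk2 had r = 0.488, or 0.158 without them. These 3 relations were weaker without those 2 libraries. Sedentary replicate 6 stood apart for Plk2, Nptx2 and Rgs2, whereas 14-7-0 replicate 4 did not. In harvest cohort 1, which does not hold sedentary replicate 6, r was 0.334, -0.472 and 0.248, in the same order. Nptx2 and Rgs2 (r = -0.621, rho = -0.441; adjusted p = 0.0009 for r by permutation) kept r = -0.34 without those 2 libraries. Npas4 and Rgs2 had r = -0.43 (rho = -0.467; adjusted p = 0.0081 for r by permutation) and r = -0.484 without them. Plk2 had r = -0.713 with the thalamus marker score (rho = -0.616; adjusted p = 8.33e-05 for r by permutation), and -0.649 without the 2 libraries farthest on that score. Rgs2 had r = 0.584 with that score but rho = 0.228 (p = 0.0701 by permutation).

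**Figure D3:**
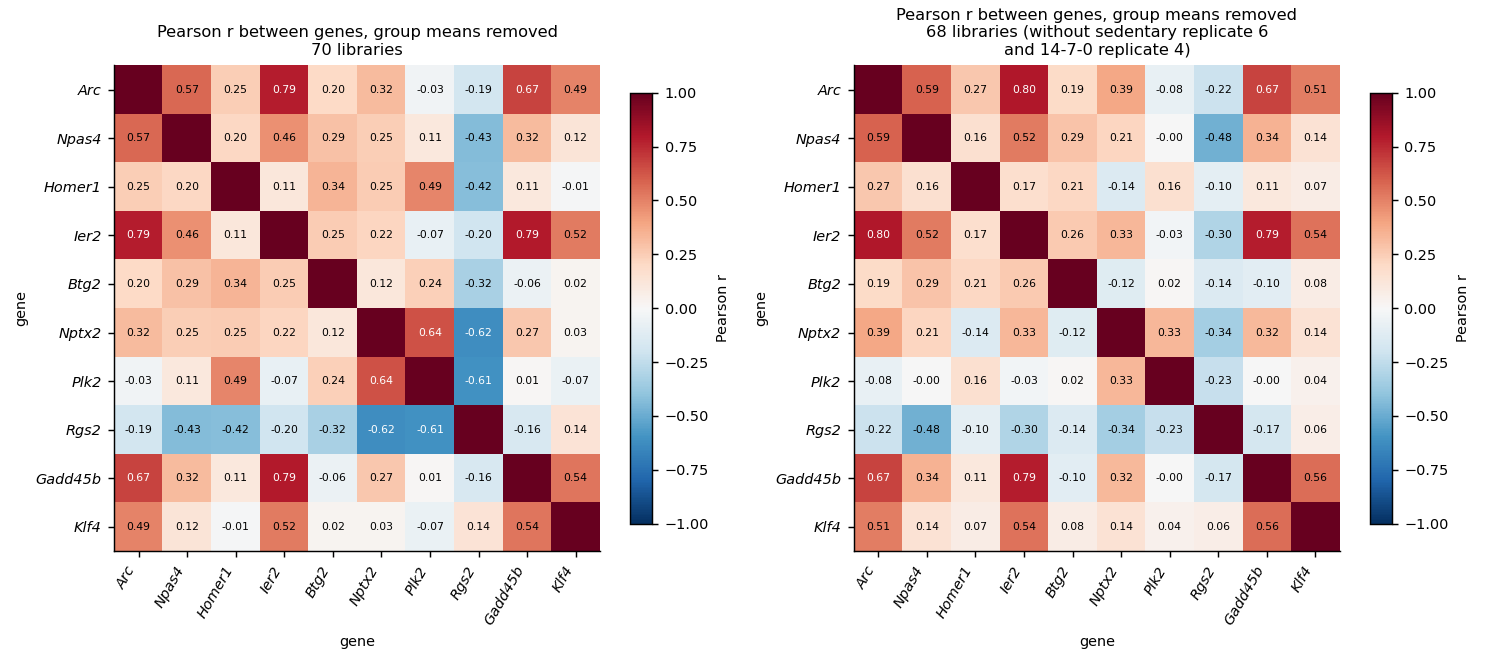
Pearson r between the 10 genes (both axes) on log2 values with group means removed, over all 70 libraries (left) and over 68 libraries (right). Arc, Npas4, Ier2, Gadd45b and Klf4 keep their values in the right panel, whereas Nptx2 with Plk2 goes from 0.64 to 0.33 and Homer1 with Plk2 from 0.49 to 0.16.

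**Figure D4:**
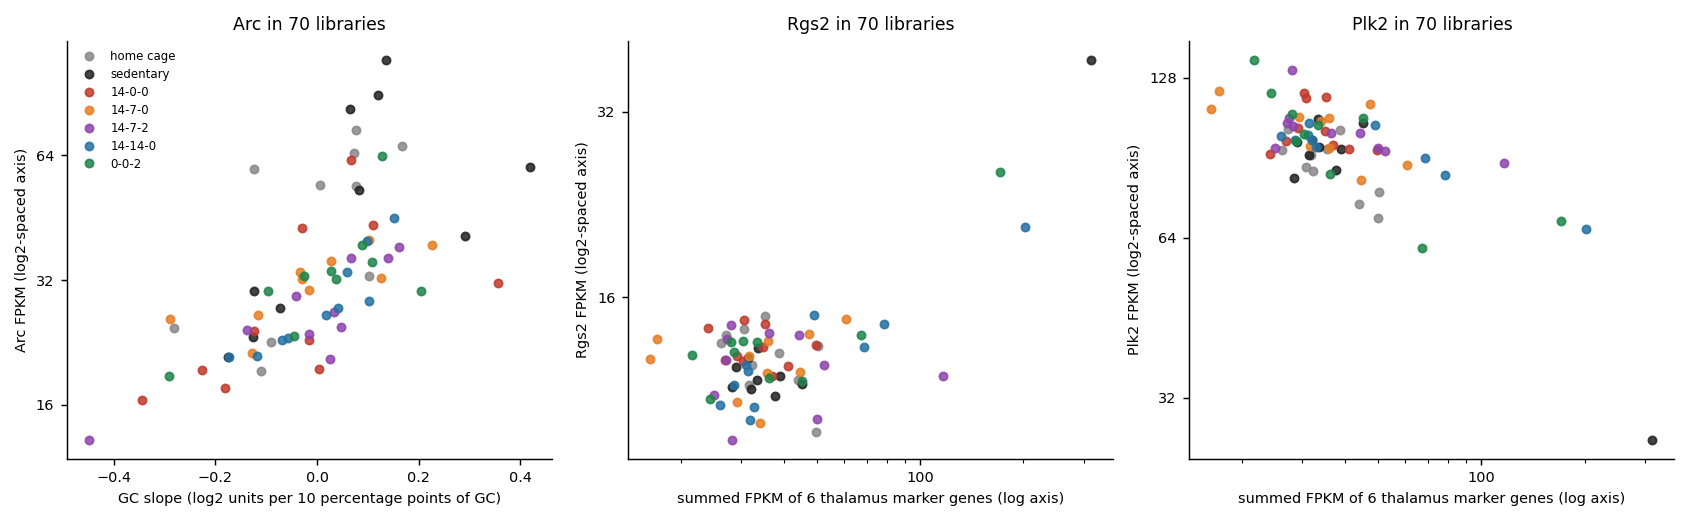
Arc FPKM against the GC slope of each library (left), and Rgs2 (middle) and Plk2 (right) FPKM against the summed FPKM of 6 thalamus marker genes, with 1 point per library colored by group. Arc rises with the slope across groups, and the libraries with thalamus sums of 171, 202 and 315 FPKM have the highest Rgs2 values.

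The genes most like each member, by r over the same 70 libraries and with no test, differed from member to member. Arc was closest to Nr4a1 (r = 0.878), Samd4b (0.866) and Midn (0.864). Ier2 was closest to Junb (0.921), Zbtb7a (0.918) and Gpr27 (0.91), and Klf4 to Id1 (0.677), Klf2 (0.676) and Egr4 (0.659). Npas4 had no gene above 0.63 and was nearest to Tnrc6c (0.63), Zfhx2 (0.615) and Mzf1 (0.605). Gadd45b was nearest to 1110008P14Rik (0.889), Foxo6 (0.867) and Zfp771 (0.866), and Btg2 to Stxbp6 (0.783), Cxcl12 (0.763) and Npy1r (0.754). Plk2 was nearest to Akr1c18 (0.923), Spink8 (0.902) and Cd34 (0.89), and Nptx2 to Tmem151b (0.884), Rgs14 (0.864) and Wbscr17 (0.848). Homer1 was nearest to Ubxn2b (0.883), Nebl (0.827) and Rab8b (0.823), and Rgs2 to Glra2 (0.867), Zcchc12 (0.866) and Grk5 (0.865).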

How the data were processed

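RNA-seq of dorsal hippocampus was analysed in 70 libraries, all used. The deposited values are FPKM per gene symbol, made by the authors from 50 bp single reads with ELAND v2e and Bowtie under the Tuxedo protocol, keeping unique alignments with at most 2 mismatches. The submitters' processing notes name mm10, Bowtie and Cuffnorm. Per the deposited table, the FPKM values come without read counts per gene. The study's supplement lists total reads per library under codes that were not matched to groups here, so absolute depth was not used. Relative depth was read from the values of 2704 genes with a mean under 0.05 FPKM, and limits precision in 14-7-0 replicate 4 most. Coordinates are from GENCODE vM21 and promoter windows from RefSeq (GRCm38.p6), the same build as mm10.

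Values were tested as log2(FPKM + 0.1), so changes of low genes are understated, in R 4.3.3 with limma 3.58.1, whose moderated two-sided test let the prior variance follow the mean. It covered the 12994 genes averaging 1 FPKM or more, and the 11352 other genes were not tested. Each comparison used the libraries of its groups without covariates, and the average of the trained groups came from a joint fit. Calls are at an unadjusted p under 0.05, with Benjamini-Hochberg adjustment over all genes beside them. The GC slope used the longest GENCODE transcript of 12521 genes (96.36% of those tested), with deviations limited to 1 log2 unit. A marker score averages, over the genes of a list, how far each lies from its own mean log2 value. Gene lists were AP-1, Egr and Nr4a factors and other activity-induced genes, and marker lists those of dentate gyrus granule cells, CA1 pyramidal cells, thalamus, choroid plexus, endothelial cells, and meninges and fibroblasts. Each library comes from 1 mouse.

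The 10 genes, the lists and the tests were chosen with earlier results of these data known. Named genes were the 10 members throughout, at most the 2 genes of smallest p per comparison from the first list and 3 from the second, and the 3 genes nearest each member by r. Alternatives were a pseudocount of 1, no minimum and a minimum mean of 5 FPKM, median ratio scaling, harvest cohort or the choroid plexus score as a covariate, a replicate block, each cohort alone, 2 libraries left out, a joint fit of the 7 groups and Cyber-T, rewritten from its formula with a window of 101 genes and 10 prior degrees of freedom. Added after seeing the data were the GC slope and the thalamus score as covariates, and the exercise groups alone against home cage. Also added were correlations with the GC slope removed and, for the exercise groups against sedentary, each library left out in turn. The scripts were tested on simulated data. Correlations used scipy 1.17.1 and numpy 2.4.6 in Python 3.11.15, and matplotlib 3.10.9 drew the figures.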

Additional observations from a re-analysis of the deposited data

Results flagged for a closer look

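Of 70 sets of 10 libraries (10 genes in 7 groups), 8 held a library apart from the others by Dixon's criterion, where chance gives 1 in 20, or 3.5. Sedentary replicate 6 was the lowest of its group for Plk2 (26.7 FPKM) and Nptx2 (4.85 FPKM) and the highest for Rgs2 (38.9 FPKM), and its summed dentate gyrus granule cell markers were 4.4 FPKM. The 0-0-2 replicate 4 library was the highest for Rgs2 (25.6 FPKM) and 14-14-0 replicate 3 the lowest for Plk2 (66.5 FPKM). Both of those libraries had high thalamus markers, whose part was not tested. In 14-7-2, replicate 5 was the highest for Nptx2 (28.5 FPKM) and replicate 9 the highest for Plk2 (132.3 FPKM). In 14-14-0, replicate 4 was the lowest for Klf4 (1.02 FPKM).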

How the results depend on the processing

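The counts below are of the 10 genes called at an unadjusted p under 0.05, and none of the results with a direction reversed. The share of all genes called was computed for the main setting only. A larger or smaller count under an alternative is therefore not set against all genes. Away from leaving libraries out in turn, 82 counts stayed within 1.5 times the main count and 33 did not, and of 172 values of single genes 146 stayed on their side of the threshold and 26 lost the call. The cause was not tested for any of these except the minimum of 5 FPKM, under which Npas4, Ier2 and Klf4 are not tested at all.

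Under that minimum 1 gene was called in each of the 4 groups that began with 14 days of running (2 in each otherwise) and 0 in 0-0-2 (1 otherwise). With no minimum 1 was called in 14-7-0. The choroid plexus score left 0 in 14-0-0 and 1 each in 14-7-0, 14-7-2 and 14-14-0. The harvest cohort as a covariate left 1 in 14-7-0, and the GC slope 1 in 14-0-0 and 1 in 14-7-0, while it gave 1 in 14-7-2 against 14-7-0 (0 otherwise). The thalamus score gave 1 in 14-7-0, 4 in 14-14-0 and 1 between cohorts (0 otherwise). Cohort 1 alone gave 1 in 14-0-0 (Klf4) and 1 in 14-14-0 (Btg2), 0 in 14-7-0, 14-7-2 and 0-0-2, and 1 in 14-7-2 against 14-7-0. Cohort 2 alone gave 0 for sedentary against home cage (1 otherwise), 1 for the trained average (4 otherwise), 1 in 14-0-0 and 14-7-2, and 1 in 14-7-2 against 14-7-0. The joint fit and Cyber-T each gave 2 in 0-0-2, adding Arc. Correlated pairs numbered 14, but 9 in cohort 1, 6 in cohort 2 and 22 with the GC slope removed.

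In the 5 comparisons of exercise groups with sedentary, each library was left out in turn, with 20 fits each. This gave 1 to 3 genes in 14-0-0, 1 to 4 in 14-7-0, 2 to 3 in 14-7-2, 2 to 4 in 14-14-0 and 1 to 2 in 0-0-2. The other comparisons had only 1 or 2 fits without a single library. Sedentary against home cage had 1 (2 genes), and 14-7-2 against 14-7-0 had 1 (0 genes). The trained average had 2 (4 and 5 genes), and the cohorts had 2 (0 and 2 genes).

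With a replicate block, 3 genes were called in 14-0-0, 3 in 14-7-0 and 3 in 14-14-0, adding Gadd45b, Gadd45b and Ier2, and Arc in 14-0-0 had p = 0.000326 in limma. The replicate number fixes the harvest cohort, and libraries of one number may share more than that. Same-numbered libraries had a mean correlation above 0 in 20 of 21 pairs of groups, against -0.0536 to 0.0146 for other numbers of the cohort, and the GC slope was below 0 for replicate 9 and above 0 for replicate 8 in all 7 groups. Yet of 210 same-numbered pairs (mean 0.0853) 96 were over 0.1, and 14 of 70 libraries correlated best with their own number. No source here says what a number shares, so the block is not the main analysis.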

Other observations

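Arc also differed between groups in its spread. Its SD over 10 libraries was 30.96 FPKM in sedentary and 20.5 in home cage, against 5.91 in 14-7-0, 7.88 in 14-7-2, 8.20 in 14-14-0, 11.97 in 0-0-2 and 15.03 in 14-0-0. On the log2 scale the SD was 0.85 in sedentary, 0.73 in home cage and 0.65 in 14-0-0. It was 0.46 in 14-7-2 and in 0-0-2, 0.38 in 14-14-0 and 0.28 in 14-7-0. In home cage, where no mouse was trained, 4 libraries were at 32.7 FPKM or less and 6 at 54.0 or more. These values were noticed in the data and no test of spread was run.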
